A study of Mus musculus with 12 samples.

Results

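The insulin-like growth factor (IGF) system was examined through its 2 ligands (Igf1, Igf2), its 2 receptors (Igf1r, Igf2r) and 6 of its binding proteins (Igfbp2 to Igfbp7). These 10 genes were taken by name, and all 10 were found among the 14217 genes tested. Each is represented by 1 probe set, and each passed the filter on low values in 12 of 12 arrays. IGF1 and IGF2 are secreted peptides that act through IGF1R, a receptor tyrosine kinase which signals through IRS adaptors to PI3 kinase and AKT. IGF2R takes up IGF2 and delivers it to lysosomes, which removes it from the pericellular space. The binding proteins hold IGFs in the circulation and in the extracellular matrix, and proteases such as PAPP-A release them. Osteoblasts secrete IGFs into bone matrix, where the peptides are stored bound to binding proteins.

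Expression was measured in sorted osteoblasts and endothelial cells of female C57BL/6 mice, in 3 tumor-bearing and 3 tumor-free samples of each cell type, 12 arrays in all. Tumor-bearing mice had received EO771 cells, a mouse mammary carcinoma line, through the heart, and tumor growth in the long bones was followed by bioluminescence. Tumor-free mice served as controls. No source used here gives the age of the mice or says whether the controls had a mock injection. Osteoblasts were gated as negative for GFP, TR119, CD45, SCA1 and CD31 and positive for CD51, and endothelial cells as negative for GFP, TR119 and CD45 and positive for SCA1 and CD31. RNA of 5000 cells per sample was amplified before hybridization to an Affymetrix Mouse Gene 1.0 ST array. The labels call the arrays biological replicates without saying whether each stands for 1 mouse or a pool, or whether the cell types came from the same mice, so the p-values measure the spread between these samples. The osteoblast gate is defined mainly by markers the cells lack, so it can hold other stromal cells of bone.

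The labelled cell types matched their markers. Of 8 osteoblast markers listed, 5 were measured. Their median was 10.07 to 11.09 in osteoblast arrays and 6.11 to 6.47 in endothelial arrays on the log2 scale. Ibsp of this list measured 10.25, 8.87 and 8.76 in tumor-bearing endothelial cells, against 7.83, 8.26 and 7.90 in tumor-free endothelial cells. It was the only 1 of the 5 whose endothelial groups did not overlap. The median over the endothelial markers was 5.81 to 6.18 in osteoblast arrays and 9.74 to 10.28 in endothelial arrays. Itgav, the gene of CD51, was higher in osteoblasts by 1.41 in tumor-free mice (limma adjusted p = 0.0341). In tumor-bearing mice its difference was 0.93, which did not pass (adjusted p = 0.172). Chondrocyte markers varied within the osteoblasts, at 9.76, 10.09 and 7.96 in tumor-bearing and 8.27, 10.17 and 8.32 in tumor-free arrays. The pan-haematopoietic median was 7.16 in replicate 3 of the tumor-bearing osteoblasts and 6.88 in the tumor-free osteoblast array of that number, and lay between 5.51 and 6.16 in all other arrays. Neutrophil markers had medians of 6.78, 6.31 and 5.95 in tumor-bearing osteoblasts, against 6.65, 7.12 and 9.49 in tumor-free osteoblasts. Replicates correlated at 0.930 to 0.944 in tumor-bearing osteoblasts, 0.912 to 0.914 in tumor-free osteoblasts, 0.938 to 0.940 in tumor-bearing endothelial cells and 0.945 to 0.954 in tumor-free endothelial cells, over all probe sets.

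Members passed the test between the cell types and not between tumor-bearing and tumor-free mice. In tumor-free mice 3 members were higher in osteoblasts than in endothelial cells (Igfbp5, Igf1 and Igfbp6) and 2 were lower (Igfbp7 and Igf1r), so 5 of 10 passed an adjusted p of 0.05, where 12.4% of all genes tested did (5.38% higher and 7% lower). In tumor-bearing mice 3 of 10 passed, Igfbp6 higher in osteoblasts and Igfbp7 and Igfbp3 lower, where 10.6% of all genes did (4.89% higher and 5.68% lower). No member passed for tumor: 0 of 10 in osteoblasts, 0 of 10 in endothelial cells and 0 of 10 for the difference between these effects, where 0.0563%, 0.0141% and 0.0281% of all genes passed. At an unadjusted p under 0.05 the members counted 4 in osteoblasts (Igf1r, Igf2, Igfbp4 and Igfbp5; 9.78% of all genes), 2 in endothelial cells (Igfbp5 and Igfbp3; 4.59%) and 1 for the difference (Igfbp5; 6.47%). All tests were limma's, adjusted by Benjamini-Hochberg over all genes. In bulk samples of sorted cells, fewer cells of a kind and less RNA per cell cannot be told apart.

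**Figure D1:**
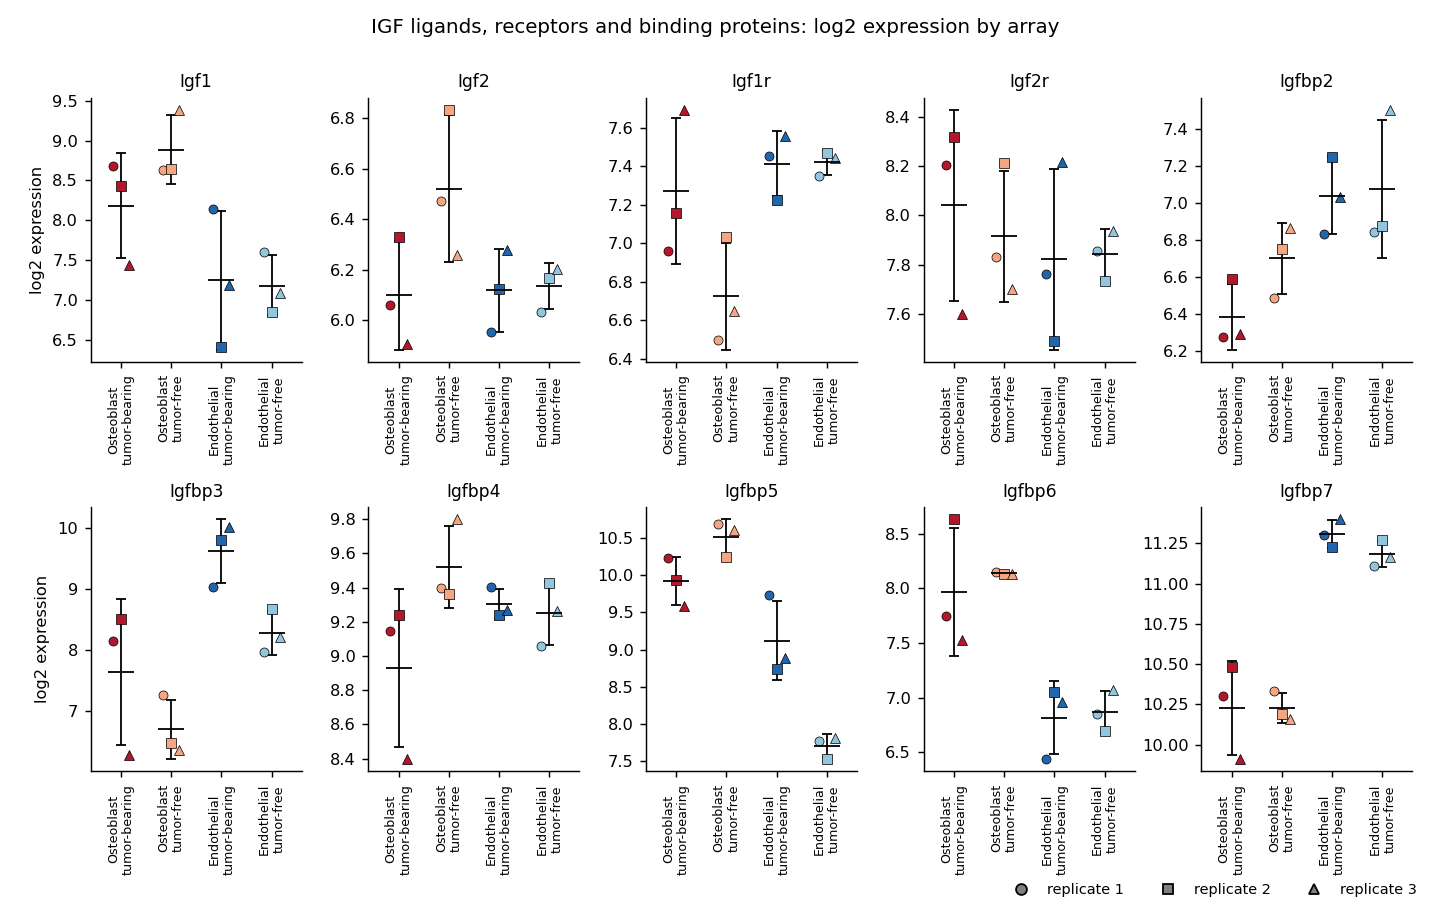
Deposited log2 values of the 10 members, one panel per gene with its own vertical scale; each point is 1 array (circle, square and triangle for replicates 1, 2 and 3), and bars give the mean and SD of 3 arrays, with tumor-bearing left of tumor-free in each cell type. Igfbp5 has no overlap between tumor-bearing and tumor-free arrays in either cell type, and Igfbp7 none between osteoblast and endothelial arrays.

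Of the ligands, Igf1 passed between the cell types of tumor-free mice. In osteoblasts it measured 8.68, 8.43 and 7.44 on the log2 scale in tumor-bearing mice, against 8.63, 8.64 and 9.38 in tumor-free mice. In endothelial cells it measured 8.15, 6.41 and 7.20 in tumor-bearing mice, against 7.60, 6.85 and 7.09 in tumor-free mice. Tumor-free osteoblasts therefore lay above every endothelial array, while the tumor-bearing osteoblast and endothelial arrays overlapped. The osteoblast excess in tumor-free mice was 1.71 (95% confidence interval 0.71 to 2.70, 3.26-fold, limma adjusted p = 0.0316). The call was lost when any 1 of the 3 tumor-free osteoblast arrays was left out (adjusted p = 0.0553, 0.0533 and 0.1 without replicates 1, 2 and 3) or without replicate 2 or 3 of the tumor-free endothelial cells (0.112 and 0.093). In tumor-bearing mice the difference was 0.93 (-0.06 to 1.93, adjusted p = 0.254). The tumor effect on Igf1 was -0.70 in osteoblasts (-1.70 to 0.30, adjusted p = 0.653) and -0.33 without tumor-bearing replicate 3. Without replicate 3 of both osteoblast groups it was -0.08. In endothelial cells the effect was 0.07 (-0.93 to 1.07, adjusted p = 1).

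Igf2, an imprinted gene expressed mainly before birth, measured 6.06, 6.33 and 5.90 in tumor-bearing osteoblasts, against 6.47, 6.83 and 6.26 in tumor-free osteoblasts. Its 6 endothelial arrays lay between 5.95 and 6.28. In tumor-free mice the osteoblast arrays lay above the endothelial ones, at 6.26 to 6.83 against 6.03 to 6.20, where 13.6% of all genes did. These values are close to the array medians of 5.95 to 6.04, where a log2 difference understates a change. The tumor-free osteoblast mean, 6.52 ± 0.29 (SD, n = 3), stood above the means of the other 3 groups, which were 6.10 to 6.13. No comparison of Igf2 passed: the tumor effect in osteoblasts was -0.42 (-0.79 to -0.06, limma adjusted p = 0.444), or -0.27 without tumor-free replicate 2, and the osteoblast excess in tumor-free mice was 0.39 (0.02 to 0.75, adjusted p = 0.183).

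Igf1r, the signalling receptor, measured 6.96, 7.16 and 7.69 in tumor-bearing osteoblasts, against 6.50, 7.04 and 6.65 in tumor-free osteoblasts. In endothelial cells it measured 7.46, 7.23 and 7.56 in tumor-bearing mice, against 7.35, 7.47 and 7.44 in tumor-free mice. The tumor-free osteoblasts lay below every endothelial array, and the tumor-bearing osteoblasts overlapped both. In tumor-free mice Igf1r was lower in osteoblasts by -0.69 (-1.13 to -0.26, 1.62-fold lower, limma adjusted p = 0.0432), a call near the threshold that held in 8 of 22 alternative settings, with values of -0.85 to -0.58. It was lost on leaving out any endothelial array (adjusted p 0.0511 to 0.122), tumor-bearing osteoblast replicate 2 (0.0569) or tumor-free osteoblast replicate 1 or 3 (0.135 and 0.108). In tumor-bearing mice the difference was -0.14 (adjusted p = 0.749). The tumor effect in osteoblasts was 0.54 (0.11 to 0.98, adjusted p = 0.396), or 0.33 without tumor-bearing replicate 3, and the difference between the tumor effects of the cell types was 0.55 (adjusted p = 0.805).

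Igf2r, the clearance receptor, showed the least separation among groups. It measured 8.20, 8.32 and 7.60 in tumor-bearing osteoblasts, against 7.83, 8.21 and 7.70 in tumor-free osteoblasts, and its endothelial arrays lay between 7.49 and 8.22 in both conditions. Its group means ran from 7.82 to 8.04 with SDs of 0.10 to 0.39, so neighbouring groups did not differ beyond their spread, and every adjusted p was 0.656 or more.

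**Figure D2:**
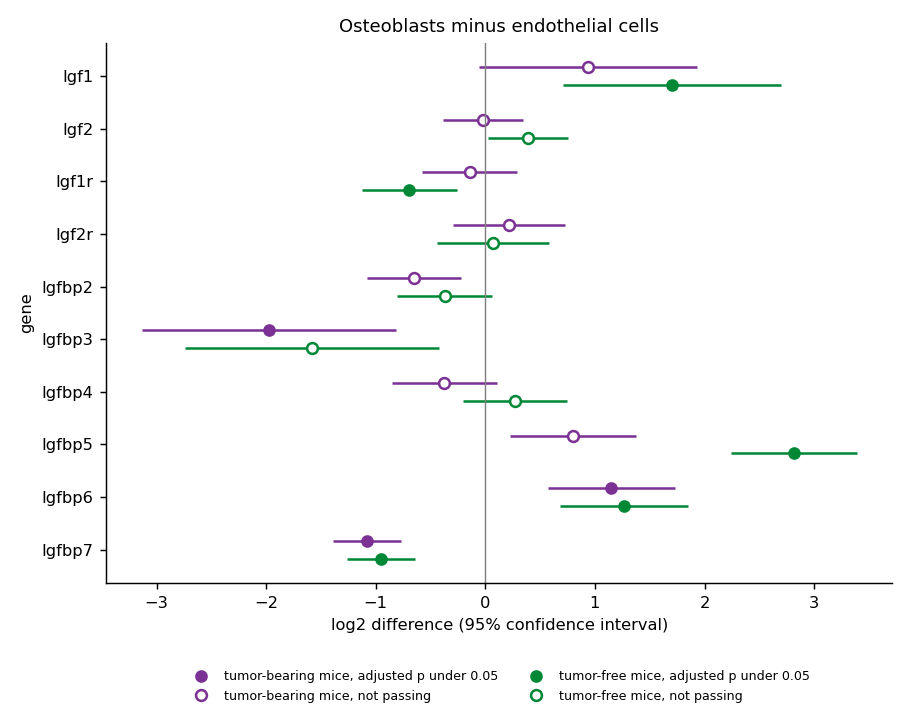
Osteoblast minus endothelial log2 difference of each member, with its 95% confidence interval, for tumor-bearing mice (upper, purple) and for tumor-free mice (lower, green); filled points have an adjusted p under 0.05. The interval of Igfbp5 in tumor-bearing mice, 0.23 to 1.37, lies below that in tumor-free mice, 2.25 to 3.39.

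Among the binding proteins, Igfbp5 and Igfbp6 were higher in osteoblasts and Igfbp7 and Igfbp3 lower. Igfbp5, which binds hydroxyapatite and matrix proteins, measured 10.23, 9.94 and 9.59 in tumor-bearing osteoblasts, against 10.70, 10.25 and 10.60 in tumor-free osteoblasts. In endothelial cells it measured 9.73, 8.74 and 8.89 in tumor-bearing mice, against 7.77, 7.52 and 7.81 in tumor-free mice. The 4 group means kept the order tumor-free osteoblasts (10.52 ± 0.24), tumor-bearing osteoblasts (9.92 ± 0.32), tumor-bearing endothelial cells (9.12 ± 0.54) and tumor-free endothelial cells (7.70 ± 0.16; SD, n = 3 each), and only the tumor-bearing osteoblast and endothelial arrays overlapped. In tumor-free mice the osteoblast excess was 2.82 (2.25 to 3.39, 7.05-fold, limma adjusted p = 4.4e-05), and it passed in all 22 alternative settings. In tumor-bearing mice it was 0.80 (0.23 to 1.37, adjusted p = 0.081), which passed in 3 of 22 settings, among them the one that left out tumor-bearing endothelial replicate 1 (1.10, adjusted p = 0.00918).

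The tumor effect on Igfbp5 ran in opposite directions in the 2 cell types. It was -0.60 in osteoblasts (-1.17 to -0.03, unadjusted p = 0.0416, limma adjusted p = 0.489) and 1.42 in endothelial cells (0.85 to 1.99, 2.68-fold, unadjusted p = 0.000228, adjusted p = 0.216). The difference between these effects was -2.02 (-2.83 to -1.21, unadjusted p = 0.000219, adjusted p = 0.222). None passed over all genes, although all 3 tumor-bearing arrays lay below the tumor-free ones in osteoblasts and above them in endothelial cells. Among all genes tested, 51 had groups that did not overlap in this way, which is 0.359%; Igfbp5 was the only member among them. Tumor-bearing endothelial replicate 1 carried the highest value of its group, and without it the endothelial effect was 1.11 (adjusted p = 0.211).

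Igfbp3, the main IGF carrier in serum, measured 9.03, 9.81 and 10.03 in tumor-bearing endothelial cells, against 7.97, 8.68 and 8.22 in tumor-free endothelial cells. In osteoblasts it measured 8.15, 8.52 and 6.28 in tumor-bearing mice, against 7.26, 6.48 and 6.36 in tumor-free mice. The endothelial groups did not overlap, and among tumor-bearing osteoblasts replicates 1 and 2 lay above every tumor-free array and replicate 3 below every one. The tumor effect in endothelial cells was 1.33 (0.17 to 2.49, 2.52-fold, unadjusted p = 0.0281), with a limma adjusted p of 1. In osteoblasts it was 0.94 (-0.22 to 2.10, adjusted p = 0.604), and 1.63 without tumor-bearing replicate 3 (adjusted p = 0.192). Igfbp3 and Igfbp5 were the 2 members whose tumor-bearing endothelial arrays all lay above the tumor-free ones, where 5.63% of all genes did; Igfbp4 and Igfbp5 were the 2 whose tumor-bearing osteoblast arrays all lay below, where 8.36% did.

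Between cell types, Igfbp3 was lower in osteoblasts of tumor-bearing mice by -1.97 (-3.13 to -0.81, 3.93-fold lower, limma adjusted p = 0.0367), a call held in 13 of 22 settings. With tumor-bearing osteoblast replicate 3 left out the value was -1.29 (adjusted p = 0.0538), and leaving out tumor-bearing endothelial replicate 2 or 3 the adjusted p was 0.107 and 0.122. Leaving out replicate 1, 2 or 3 of the tumor-free endothelial cells gave 0.0523, 0.0504 and 0.0564. In tumor-free mice the difference was -1.58 (-2.74 to -0.42, adjusted p = 0.0814); it passed with tumor-bearing osteoblast replicate 3 left out, an array that enters the shared spread (adjusted p = 0.0095).

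Igfbp7, a member of the family with low affinity for IGFs and a product of vascular endothelium, was lower in osteoblasts in both conditions. It measured 10.30, 10.48 and 9.91 in tumor-bearing osteoblasts, against 10.33, 10.19 and 10.16 in tumor-free osteoblasts. In endothelial cells it measured 11.30, 11.23 and 11.40 in tumor-bearing mice, against 11.11, 11.27 and 11.16 in tumor-free mice. All osteoblast arrays lay below all endothelial arrays. The difference was -1.08 in tumor-bearing mice (-1.39 to -0.77, 2.11-fold lower, limma adjusted p = 0.000574) and -0.95 in tumor-free mice (-1.27 to -0.64, 1.94-fold lower, adjusted p = 0.00115), and both passed in all 22 settings. The tumor effect was 0.00 in osteoblasts (-0.31 to 0.31) and 0.13 in endothelial cells (-0.18 to 0.44).

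Igfbp6, which prefers IGF2 over IGF1, was higher in osteoblasts in both conditions. It measured 7.74, 8.63 and 7.52 in tumor-bearing osteoblasts, against 6.44, 7.05 and 6.96 in tumor-bearing endothelial cells. In tumor-free mice it measured 8.15, 8.13 and 8.13 in osteoblasts, against 6.85, 6.69 and 7.07 in endothelial cells. No osteoblast array overlapped an endothelial one. The excess was 1.15 in tumor-bearing mice (0.57 to 1.73, 2.22-fold, limma adjusted p = 0.0179), a call held in 20 of 22 settings. It was lost on leaving out tumor-bearing endothelial replicate 1 (0.96, adjusted p = 0.0683) and with only the groups compared in the fit (adjusted p = 0.0932). In tumor-free mice the excess was 1.27 (0.68 to 1.85, 2.41-fold, adjusted p = 0.00917), held in all 22 settings. The tumor effect was -0.17 in osteoblasts (-0.75 to 0.41, adjusted p = 0.86).

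Igfbp2 and Igfbp4 passed in no comparison. Igfbp2, the neighbour of Igfbp5 on mouse chromosome 1 with no protein-coding gene between them, measured 6.28, 6.59 and 6.29 in tumor-bearing osteoblasts, against 6.83, 7.25 and 7.03 in tumor-bearing endothelial cells. The 2 groups did not overlap, with a difference of -0.65 (-1.08 to -0.22, limma adjusted p = 0.0611); in tumor-free mice it was -0.37 (adjusted p = 0.292). Igfbp4, a binding protein that PAPP-A cleaves, measured 9.15, 9.24 and 8.40 in tumor-bearing osteoblasts, against 9.40, 9.36 and 9.80 in tumor-free osteoblasts. All tumor-bearing arrays lay below the tumor-free ones, and the tumor effect was -0.59 (-1.07 to -0.12, adjusted p = 0.405), or -0.33 without tumor-bearing replicate 3. Without replicate 3 of both osteoblast groups it was -0.19. Its 6 endothelial arrays lay between 9.06 and 9.43.

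**Figure D3:**
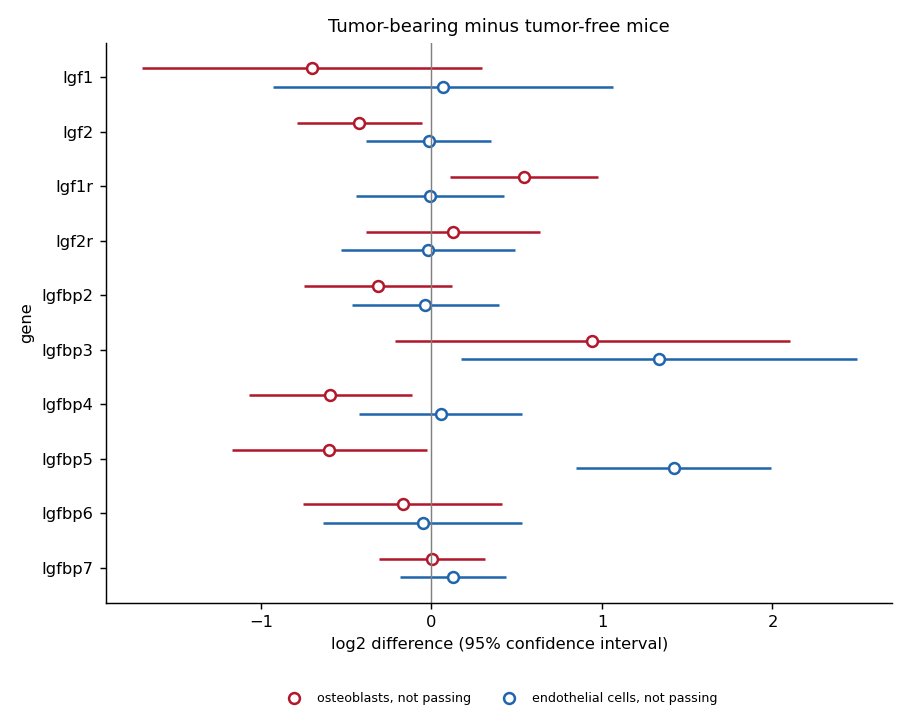
Tumor-bearing minus tumor-free log2 difference of each member in osteoblasts and in endothelial cells, with its 95% confidence interval; open points have an adjusted p of 0.05 or more, which is the case for all 20 values. Igfbp5 is the member whose intervals exclude 0 on opposite sides in the 2 cell types.

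Replicate 3 of the tumor-bearing osteoblasts had the lowest value of its group for 8 of 10 members, where it was lowest for 35.9% of all genes tested. This is the array with the pan-haematopoietic median of 7.16 and the chondrocyte median of 7.96, where the other arrays of its group had chondrocyte medians of 9.76 and 10.09. Krt8, a keratin on the list of carcinoma markers that was singled out after its values were seen, measured 10.13 in this array, against 6.78 to 7.54 in the other 11. The carcinoma list as a whole had medians of 5.84 to 5.90 in tumor-bearing osteoblasts, against 5.77 to 6.08 in tumor-free osteoblasts. Of 9 neutrophil markers tested in osteoblasts, 0 had a positive tumor effect, where 46.7% of all genes did. Their median effect was -1.03, with none passing an adjusted p of 0.05. In tumor-free osteoblasts the list median was 9.49 in replicate 3, against 6.65 and 7.12 in replicates 1 and 2. For 1 of 9 markers the tumor-bearing arrays all lay below the tumor-free ones, where 8.36% of all genes did. The part of these markers in the osteoblast values, those of Igfbp4 and Igfbp5 included, was not tested. The lower Igfbp5 of tumor-bearing osteoblasts stood at -0.43 without tumor-bearing replicate 3, and at -0.39 without replicate 3 of both osteoblast groups.

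Markers of marrow stromal niche cells, which are known to express Igfbp5, moved with Igfbp5 across the groups. The list of 10 genes (Lepr, Cxcl12, Kitl, Ebf3, Ebf1, Foxc1, Adipoq, Pdgfrb, Cxcl14 and Angpt1) had array medians of 7.74 to 8.09 in tumor-bearing endothelial cells, against 7.10 to 7.25 in tumor-free endothelial cells. In osteoblasts the medians were 8.18 to 8.51 in tumor-bearing mice, against 8.75 to 9.07 in tumor-free mice. The groups overlapped in neither cell type. For tumor, 10 of 10 list members had a positive difference in endothelial cells (median 0.92), where 51.4% of all genes did. In osteoblasts 0 of 10 did (median -0.48), where 46.7% of all genes did. None of the 10 passed an adjusted p of 0.05 in either cell type. The list was chosen with earlier results of these data known, so these counts can follow in part from that choice. Pericyte and smooth muscle markers had medians of 6.56 to 6.81 in tumor-bearing endothelial cells, against 6.14 to 6.50 in tumor-free endothelial cells. By gene the median tumor effect was 0.03, with 7 of 9 positive. For 2 of 9 the tumor-bearing arrays all lay above the tumor-free ones, where 5.63% of all genes did. Markers of the injected carcinoma cells had medians of 5.93 to 6.17 in tumor-bearing endothelial cells, against 5.92 to 6.09 in tumor-free endothelial cells. The part of niche and pericyte cells in the Igfbp5 and Igfbp3 values was not tested.

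The genes nearest to Igfbp5 over the 12 arrays, by the root mean square difference after centring each gene, were Hp (0.260) and Kng2 (0.291) among 14216 genes. Hp encodes haptoglobin, the haemoglobin carrier of plasma, and Kng2 a kininogen, a precursor of kinins. Hp measured 9.38, 8.13 and 8.47 in tumor-bearing endothelial cells, against 6.98, 6.49 and 7.47 in tumor-free endothelial cells, a difference of 1.68 (limma adjusted p = 0.396). In osteoblasts it measured 9.85, 9.54 and 8.91 in tumor-bearing mice, against 9.74, 9.23 and 9.77 in tumor-free mice, a difference of -0.15. Kng2 differed by 0.91 in endothelial cells (adjusted p = 0.845) and by -0.69 in osteoblasts (adjusted p = 0.475). For all 3 genes the highest tumor-bearing endothelial value was that of replicate 1. Hp and Kng2 were picked for nearness to Igfbp5 over these same 12 arrays, so shared patterns follow in part from that choice. For Igfbp3 the nearest genes were Atl1 (0.605), which shapes the endoplasmic reticulum, and Glul (0.626), the glutamine synthetase, both farther from it than Hp and Kng2 from Igfbp5.

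**Figure D4:**
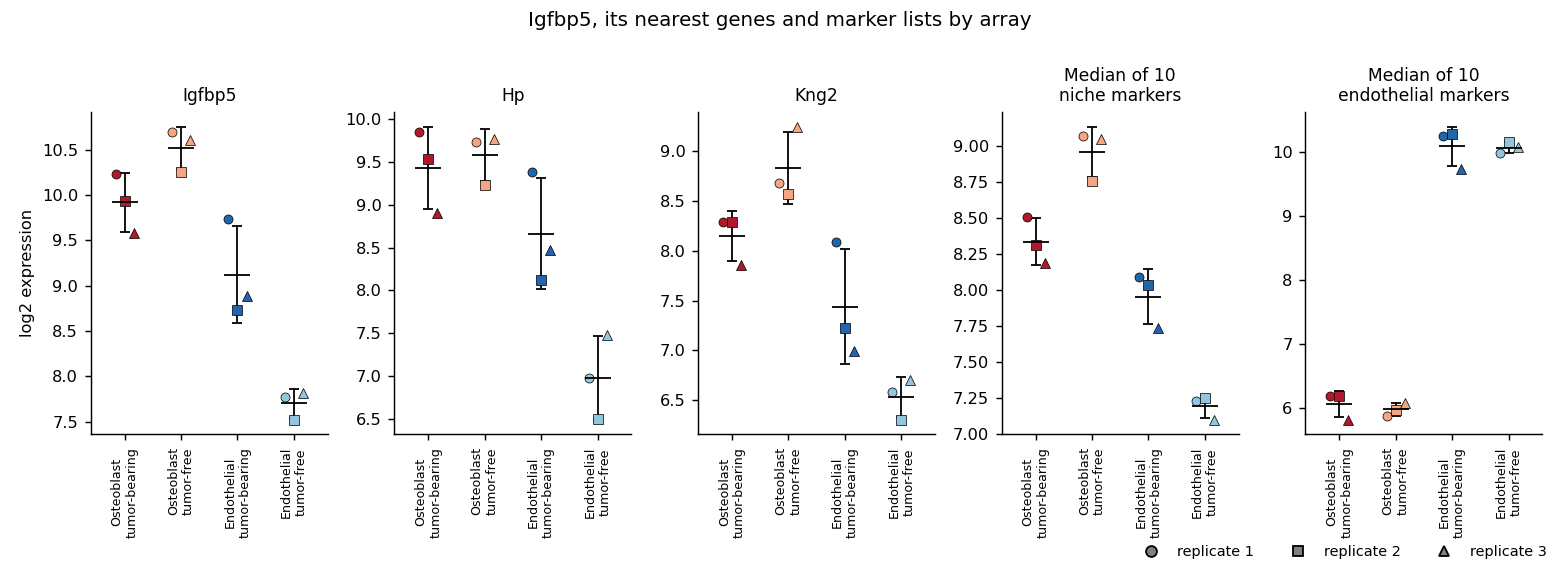
Log2 values of Igfbp5 and its nearest genes over the 12 arrays, Hp and Kng2, with medians of 10 niche and 10 endothelial markers per array. The 4 groups are shown, each panel on its own scale, with the mean and SD of 3 arrays. For the genes and niche markers, the tumor-bearing endothelial mean lies between the means of the osteoblast groups and that of tumor-free endothelial cells. In the endothelial marker panel the tumor-bearing and tumor-free endothelial arrays overlap, and both lie above the osteoblast arrays.

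The sequences before the annotated starts of Igfbp5, Igfbp3 and Igfbp7 are shown because the first 2 are the members whose endothelial groups separated by tumor and the third separated the cell types in every setting. Each is the 150 bases before an annotated start in the direction of the gene, from RefSeq on GRCm38.p6. They are chr1:72874866-72875015 for Igfbp5, chr11:7213924-7214073 for Igfbp3 and chr5:77408046-77408195 for Igfbp7, all on the minus strand. Those of Igfbp5 and Igfbp7 adjoin the annotated gene. That of Igfbp3 lies within the annotated gene (chr11:7206086-7215498), so its start is not at the end of the gene. Capitals mark matches on either strand to TATANA or TATNNAA, forms of the TATA box that can overlap each other, and to GGGCGG, the core of the GC box.
Igfbp5: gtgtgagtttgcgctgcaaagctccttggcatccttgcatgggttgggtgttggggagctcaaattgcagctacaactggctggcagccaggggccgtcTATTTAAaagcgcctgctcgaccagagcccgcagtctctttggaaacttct
Igfbp3: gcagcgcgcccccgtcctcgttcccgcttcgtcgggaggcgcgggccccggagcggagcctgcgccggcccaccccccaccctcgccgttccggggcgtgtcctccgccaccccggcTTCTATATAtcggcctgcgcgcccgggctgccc
Igfbp7: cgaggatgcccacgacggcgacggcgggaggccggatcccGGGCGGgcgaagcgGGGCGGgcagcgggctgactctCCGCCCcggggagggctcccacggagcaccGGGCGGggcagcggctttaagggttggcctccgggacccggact
Igfbp5 held TATNNAA beginning 51 bases before the start, and Igfbp3 held TATANA beginning 30 bases before it. Igfbp7 held neither in these bases and held GGGCGG at 4 places, 1 of them on the opposite strand. In the 250 bases before a start, TATANA was found in 22.6% of 32851 RefSeq windows, TATNNAA in 29% and GGGCGG in 32.7%. The motifs were chosen after the sequences had been read, and a match describes the letters only.

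Some other genes of the pathway also differed between the cell types, and 0 passed for tumor in either cell type or for the difference. Between the cell types, 10.6% of all genes tested passed in tumor-bearing mice and 12.4% in tumor-free mice. The counts of each list are to be read against these shares, and the lists were not tested as sets. Proteases that cleave binding proteins and their inhibitors had 2 of 6 tested genes higher and 1 lower in osteoblasts, in each of the 2 conditions. Htra1, a secreted protease known to cleave IGFBP5, was higher in osteoblasts by 2.18 in tumor-bearing mice (limma adjusted p = 0.00263) and by 3.29 in tumor-free mice (adjusted p = 0.000153). Pappa, the gene of PAPP-A, was higher by 1.24 in tumor-bearing mice (adjusted p = 0.0312) and by 1.90 in tumor-free mice (adjusted p = 0.00268). The first of these calls was lost on leaving out any tumor-bearing endothelial array or tumor-bearing osteoblast replicate 1 or 2 (adjusted p 0.0578 to 0.112). Stc1, an inhibitor of PAPP-A, was lower by -1.89 in tumor-bearing mice (adjusted p = 0.00044) and by -1.91 in tumor-free mice (adjusted p = 0.000385). Stc2, a further inhibitor of PAPP-A, had values of 1.15 in tumor-bearing mice (adjusted p = 0.0612) and 0.70 in tumor-free mice (adjusted p = 0.26), on the side of Pappa and not of Stc1. Adam9, a membrane protease, had values of -0.66 in tumor-bearing mice (adjusted p = 0.193) and -0.70 in tumor-free mice (adjusted p = 0.159). For tumor, Htra1 stood at 0.87 in endothelial cells (adjusted p = 1), with 0.44 on leaving out tumor-free endothelial replicate 1 and 1.31 on leaving out replicate 3. Stc2 stood at 0.53 in osteoblasts (adjusted p = 0.658) and passed on leaving out tumor-bearing replicate 3 (1.04, adjusted p = 0.0413). Over the whole list, the median tumor effect was -0.02 in osteoblasts and 0.16 in endothelial cells.

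The receptor signalling list of 25 tested genes had 1 higher and 1 lower in osteoblasts of tumor-bearing mice, where 10.6% of all genes passed. In tumor-free mice 3 were higher and 2 lower, where 12.4% of all genes passed. The medians in tumor-bearing and tumor-free mice were -0.06 and -0.00, against -0.03 and -0.01 over all genes. Irs1, the adaptor that carries signals of both receptors for IGF1 and insulin, measured 9.29, 8.97 and 8.62 in tumor-bearing osteoblasts, against 6.43, 5.36 and 6.63 in tumor-bearing endothelial cells. In tumor-free mice it measured 9.07, 9.07 and 9.08 in osteoblasts, against 4.95, 5.20 and 4.92 in endothelial cells. The excess was 2.82 (limma adjusted p = 0.000114) in tumor-bearing and 4.05 (adjusted p = 6.65e-06) in tumor-free mice. Insr, the insulin receptor, was lower in osteoblasts by -2.28 in tumor-bearing mice (adjusted p = 0.00091) and by -2.69 in tumor-free mice (adjusted p = 0.000277). Irs1 thus differed in the direction of Igf1, and Insr in that of Igf1r in tumor-free mice. The tumor effect on Irs1 in endothelial cells was 1.12, with unadjusted p = 0.00292 and adjusted p = 0.661; it passed on leaving out tumor-bearing endothelial replicate 2 (1.51, adjusted p = 0.0362).

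In the growth hormone axis, which controls Igf1 transcription in liver and bone, 0 of 7 tested genes passed between the cell types in tumor-bearing mice, and 1 was higher and 1 lower in osteoblasts of tumor-free mice. Ghr, the growth hormone receptor, differed by 0.25 in tumor-bearing mice (limma adjusted p = 0.583) and by 0.79 in tumor-free mice (adjusted p = 0.0406). That call was lost on leaving out tumor-free osteoblast replicate 1 (0.53, adjusted p = 0.0962), any tumor-free endothelial array (0.0833 to 0.125), tumor-bearing osteoblast replicate 1 or 2 (0.0519 and 0.0574) or tumor-bearing endothelial replicate 2 or 3 (0.05 and 0.0526). Jak2, the kinase bound to that receptor, differed by -0.74 in tumor-bearing mice (adjusted p = 0.0506) and by -1.25 in tumor-free mice (adjusted p = 0.0028), and its tumor effect in osteoblasts was 0.69 (adjusted p = 0.338).

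The proteins related to the binding proteins by their IGFBP domain had 3 of 9 tested genes higher in osteoblasts of tumor-bearing mice and 6 of 9 in tumor-free mice, and 0 lower in either. Kazald1, a secreted protein of bone, was higher by 3.16 in tumor-bearing mice (limma adjusted p = 1.61e-05) and by 3.24 in tumor-free mice (adjusted p = 1.21e-05). Ccn4, a target of Wnt signalling, was higher by 1.13 in tumor-bearing mice (adjusted p = 0.0106) and by 1.39 in tumor-free mice (adjusted p = 0.00282); the first of these calls was lost with only the groups compared in the fit (adjusted p = 0.0661). Ccn2, connective tissue growth factor, was higher by 1.01 in tumor-bearing mice (adjusted p = 0.0158) and by 0.90 in tumor-free mice (adjusted p = 0.0238), with both Ccn2 calls held in 18 of 22 settings. In tumor-bearing mice the Ccn2 call was lost on leaving out osteoblast replicate 1 or 2 (adjusted p = 0.063 and 0.0578) or endothelial replicate 2 or 3 (0.0516 and 0.0617), and in tumor-free mice on leaving out the same numbers (0.058, 0.0798, 0.0738 and 0.0885). Esm1, a proteoglycan named for endothelial cells, measured 10.13, 10.02 and 9.76 in tumor-bearing osteoblasts, against 10.50, 10.53 and 10.57 in tumor-free osteoblasts. In endothelial cells it measured 10.39, 9.38 and 9.37 in tumor-bearing mice, against 8.54, 7.50 and 7.99 in tumor-free mice. Like Igfbp5, it did not overlap between tumor-bearing and tumor-free arrays in either cell type, below in osteoblasts and above in endothelial cells. Its tumor effect in endothelial cells was 1.71 (unadjusted p = 0.000178, adjusted p = 0.195), and it was higher in tumor-free osteoblasts than in tumor-free endothelial cells by 2.52 (adjusted p = 0.000296).

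Of 7 tested imprinted growth genes and Igf2 mRNA binders, 1 was higher in osteoblasts in both conditions: Plagl1, a zinc finger factor of the imprinted gene network, by 2.10 in tumor-bearing mice (limma adjusted p = 0.00417) and by 2.38 in tumor-free mice (adjusted p = 0.00167). For tumor, the median over these 7 was -0.03 in osteoblasts and 0.09 in endothelial cells, against -0.02 and 0.01 over all genes.

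**Figure D5:**
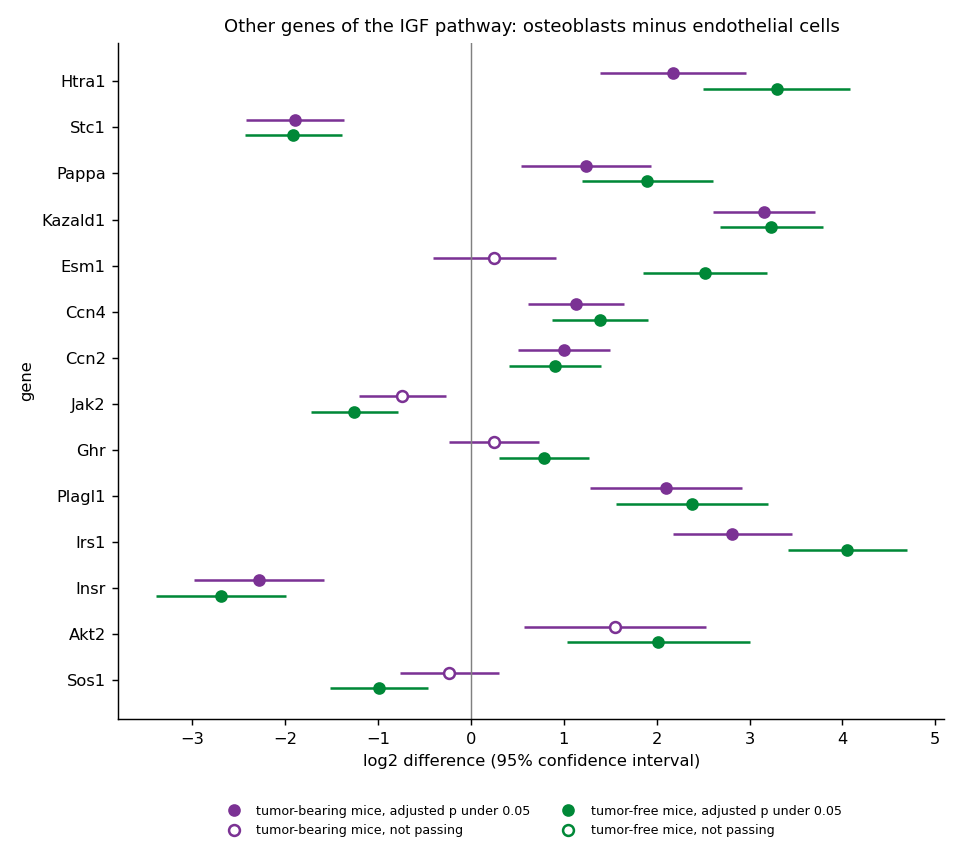
Osteoblast minus endothelial log2 difference of the named pathway genes, with its 95% confidence interval, for tumor-bearing and for tumor-free mice; filled points have an adjusted p under 0.05. Irs1 and Kazald1 lie to the right of 0 and Insr and Stc1 to the left in both conditions.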

How the data were processed

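The deposited values are log2 expression values per probe set of Affymetrix Mouse Gene 1.0 ST arrays, made by the authors with affy, per the submitters' processing notes. Its version and summary method, and how probes were grouped into sets, are not stated in these sources. Per the labels' protocols, RNA of 5000 cells was amplified by SPIA before labelling, which can distort proportions of transcripts. The authors' normalization was kept (array medians 5.95 to 6.04).

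Of 34760 probe sets, a platform annotation gave 1 symbol to 21640. Symbols were updated to RefSeq (GRCm38.p6) through Entrez numbers. The probe set with the highest mean stood for a gene, and 14217 of 19937 genes exceeded the array's 40th percentile in at least 3 of 12 arrays. No probe's level was set against another's.

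Groups came from sample titles. The 12 arrays entered a single limma 3.58.1 model (lmFit, eBayes; R 4.3.3, jsonlite 2.0.0) with a mean for each group; p-values were two-sided, adjusted by Benjamini-Hochberg over all genes tested, threshold 0.05; the scripts were tested on simulated data. Intervals are 95% confidence intervals, and the number of arrays limits the precision. Figures were drawn with matplotlib 3.10.9. All members were named; of each pathway list, up to 4 genes with the lowest p among those passing, or 2 where none passed; and the 2 nearest genes of members whose group means spread by 2 or more. The members and gene lists were chosen with earlier results of these data known. Same-numbered arrays did not deviate together (correlations of -0.052 to 0.074), so the numbers were not treated as pairs. Some genes of the pathway lists are not reported here. Alternatives covered scaling, filter, probe set rule, variance model, array weights, samples in the fit, a replicate block and each array left out.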

Additional observations from a re-analysis of the deposited data

Results flagged for a closer look

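The tumor effects on Igfbp5 and Esm1 differed between the cell types by arrays that did not overlap, in opposite directions. Of all genes tested, 51 (0.359%) had groups that did not overlap in this way, below in osteoblasts and above in endothelial cells. Kng2 and the niche markers Lepr, Cxcl12, Ebf3, Ebf1 and Adipoq were also among them, and the other niche markers listed were not. For Igfbp5 the osteoblast minus endothelial difference of the tumor effects was -2.02 (limma adjusted p = 0.222 for the interaction). For Esm1, a protein with an IGFBP domain, it was -2.27 (unadjusted p = 0.00029, limma adjusted p = 0.244). Neither passed over all genes tested, and both rest on 3 arrays per group.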

How the results depend on the processing

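With 22 alternative settings, 0 members passed for tumor in osteoblasts or endothelial cells, or for the difference of these effects in its 21 settings. No member effect with an unadjusted p under 0.05 changed sign, but effects near 0 did, such as the tumor effects on Igfbp7 (-0.12 to 0.16) and Igfbp6 (-0.50 to 0.05) in osteoblasts and on Igf1 in endothelial cells (-0.38 to 0.49). Of the pathway genes named, Irs1 passed for tumor in endothelial cells and Stc2 in osteoblasts in 1 setting each. Between cell types the count of 3 members in tumor-bearing mice became 5 with array weights and 1 with only the groups compared, and was 2 to 3 when 1 array was left out; the count of 5 in tumor-free mice was 3 to 6 when 1 array was left out. With the replicate number as a block, 4 members passed in tumor-bearing mice (Igfbp2 and Igfbp5 gained, Igfbp3 lost at adjusted p = 0.0509) and 4 in tumor-free mice (Igf1r lost), and the all-gene counts for tumor in osteoblasts and for the difference were 1 each. Over all genes, the count of 8 for tumor in osteoblasts ranged from 0 (only the groups compared) to 45 (without replicate 3 of both osteoblast groups), the 2 in endothelial cells from 2 to 6, and the 4 for the difference from 0 to 8. The causes were not tested. The Igfbp5 effect kept its sign throughout, between 1.11 and 1.61 in endothelial cells (adjusted p 0.152 to 0.694). Values near array medians (Igf2, Igfbp2) limit what a log2 difference can show.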
